A study of Mus musculus with 12 samples.

Results

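The semaphorins, plexins and neuropilins are 30 genes named by symbol, 19 semaphorin ligands and 11 receptors (9 plexins and 2 neuropilins), among the 51912 genes listed for each library of embryonic mouse cortex. All 30 were found by symbol. Of these, 28 had enough counts to be tested, 18 ligands and 10 receptors. Sema3b and Plxnb3 did not, with 0 to 4 counts per library. Total RNA was measured in 12 libraries of cerebral cortex dissected at embryonic day 15.5. The 6 mutants carried the conditional Arid1a mutation with Emx1-Cre, a recombinase expressed from the Emx1 gene in the dorsal forebrain progenitors that give rise to cortical excitatory neurons and glia, but not in interneurons, vessels or microglia. The 6 controls are labelled only as controls, and the labels do not say whether they carry Cre or a floxed allele. Arid1a encodes a subunit of the BAF chromatin remodelling complex. Litter and sex were uneven: litter 1 gave 2 mutants (both female) and 4 controls (1 female, 3 male), and litter 2 gave 4 mutants (3 female, 1 male) and 2 controls (1 of each sex). The design thus asks how the signalling family differs between genotypes, and the labels also allow litter and sex to be compared.

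Semaphorins are secreted or membrane-bound guidance cues. Plexins are their signalling receptors, and most secreted class 3 semaphorins reach plexins through a neuropilin, which binds the ligand but signals little by itself. In the developing cortex the family steers axons, orients dendrites and guides migrating neurons, and in vessels Nrp1 also binds VEGF and Plxnd1 responds to Sema3e.

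Levels below are normalised CPM, that is, the counts of a gene relative to the library's total on the genes tested, after scaling between libraries by the trimmed mean of M-values. Library totals on all genes ran from 643197 counts in mutant 1 to 3525121 in mutant 3, and the members together took 4304 to 25572 counts of a library. Differences are log2 fold changes from edgeR's quasi-likelihood test in a model of genotype, litter and sex, and a gene was called at a Benjamini-Hochberg adjusted p under 0.05 over all 10678 genes tested. Arid1a itself averaged 447 ± 51.0 CPM over the mutants, against 510 ± 42.3 CPM over the controls (SD, n = 6 each). That log2 fold change, -0.30 with an SE of 0.0958, was not called (adjusted p = 0.277). The count covers the whole gene, and the labels do not name the deleted exons. Markers of cortical excitatory neurons were present in all libraries, with a summed level of 2168 to 2927 CPM in mutants and 2658 to 4292 CPM in controls. Of these 7 markers 6 had negative genotype values, and 1 was called, Tle4 at -0.81 (adjusted p = 0.00961); their part in the members' genotype values was not tested. The radial glia marker Sox2 was listed at 0 in all 12 libraries, while the 6 radial glia markers summed to 380.1 to 675 CPM in mutants and 275 to 559 CPM in controls. In such bulk tissue, fewer cells of a type and less RNA per cell cannot be told apart.

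Among the ligands, compared per kilobase of annotated exon in the controls, Sema6d stood highest. Sema6d, a membrane-bound class 6 semaphorin, had 66.4 ± 13.3 CPM per exon kb (SD, n = 6). Sema5b followed at 26.1 ± 4.18 and Sema6a at 19.4 ± 3.35 CPM per exon kb. The lowest tested ligands were Sema3d at 0.568, Sema4a at 2.21 and Sema3e at 2.24 CPM per exon kb. Among the receptors Plxna4, a receptor for class 3 and class 6 semaphorins, led with 149.8 ± 38.1 CPM per exon kb. Plxna2 had 82.9 ± 11.7 and Nrp1 52.5 ± 20.4 CPM per exon kb, and Plxnd1 was the lowest tested receptor at 5.88 ± 1.38. Plxna1 came after these, at 18.7 CPM per exon kb, so that 3 of the 4 class A plexins and Nrp1 held the first 4 places. The order rests on the length used, because the libraries hold total RNA and whether intronic reads were counted is not given. Entries assigned to no feature made up 4.89 to 6.83% of a file, and the intronic share of the counts was not tested. Annotated exons cover 1.827% of the span of Sema6d and 3.177% of that of Plxna4. Per kilobase of gene span, Sema4c came first and Sema6d took place 8 among the ligands, and Plxna2 came first among the receptors with Plxna4 at place 3.

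**Figure D1:**
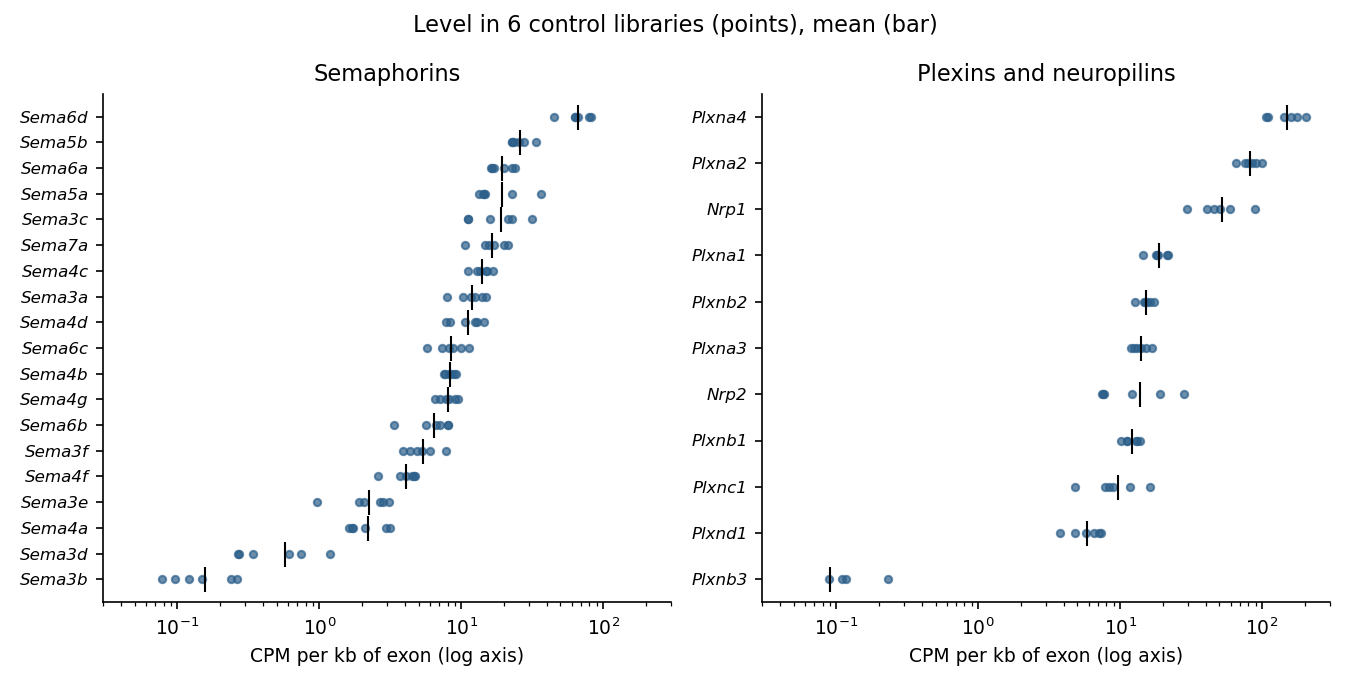
Level of each semaphorin (left) and each plexin or neuropilin (right) in the 6 control libraries, as CPM per kb of annotated exon on a log axis; points are libraries and vertical bars are means. Libraries with a level of 0 are in the means but cannot be drawn. Sema6d (66.4) and Plxna4 (149.8) stand highest in their panels.

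Sema3e and Plxnd1 form a ligand and receptor pair that binds without a neuropilin, and their promoter sequences are shown because both had positive genotype values, given below. The windows are the 250 bases before the start site in RefSeq on GRCm38.p6, written 5′ to 3′ on the gene's strand, with capitals marking each GC box (GGGCGG, or CCGCCC where it lies on the other strand). The first is chr5:14025026-14025275 on the plus strand and the second chr6:115995006-115995255 on the minus strand.
Sema3e: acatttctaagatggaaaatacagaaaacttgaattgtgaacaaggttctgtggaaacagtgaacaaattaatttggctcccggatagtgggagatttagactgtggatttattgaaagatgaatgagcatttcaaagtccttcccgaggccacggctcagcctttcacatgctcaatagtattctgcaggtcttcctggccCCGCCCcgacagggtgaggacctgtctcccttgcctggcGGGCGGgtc
Plxnd1: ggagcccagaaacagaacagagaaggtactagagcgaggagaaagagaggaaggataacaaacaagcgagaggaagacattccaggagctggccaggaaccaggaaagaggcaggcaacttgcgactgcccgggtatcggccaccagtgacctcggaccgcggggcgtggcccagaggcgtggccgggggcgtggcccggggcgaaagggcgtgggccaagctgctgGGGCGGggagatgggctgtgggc
The Sema3e window held 2 GC boxes and the Plxnd1 window 1. A GC box was present in 32.74% of the 32851 promoter windows of this length in the table. Neither window held TATAAA or CCAAT on either strand, letters found in 12.37% and 33.85% of all windows. The motifs were searched by exact letters and do not overlap one another as counted here. A match is a description of the letters and not of binding. In all, 25 of the 30 members had a window.

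Genotype gave no called member. None of the 28 passed the edgeR test, where 0.215% of all genes tested were called in either direction, and the lowest adjusted p of a member was 0.295. At an unadjusted p under 0.05 there were 6 members (21.4% of 28), against 8.78% of all genes. DESeq2 called 1 member, Nrp1, and limma-voom called none. Over all genes DESeq2 called 95 by genotype, limma-voom 24 and edgeR 23. Positive values were found for 16 members and negative ones for 12, with a median log2 fold change of 0.04, where 49.9% of all genes were positive and the median was -0.00. The median was -0.00 over the ligands and 0.06 over the receptors. None of these medians had a stable sign: over the alternative fits the median ran from -0.06 to 0.11 over all members, from -0.08 to 0.07 over the ligands and from -0.05 to 0.12 over the receptors. Without mutant 4 it was -0.04 over all members and over the receptors, and without control 6 -0.02 and -0.05. The 95% interval lay within a 2-fold change in either direction for 22 members, 78.6% of those tested, against 84.3% of all genes.

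**Figure D2:**
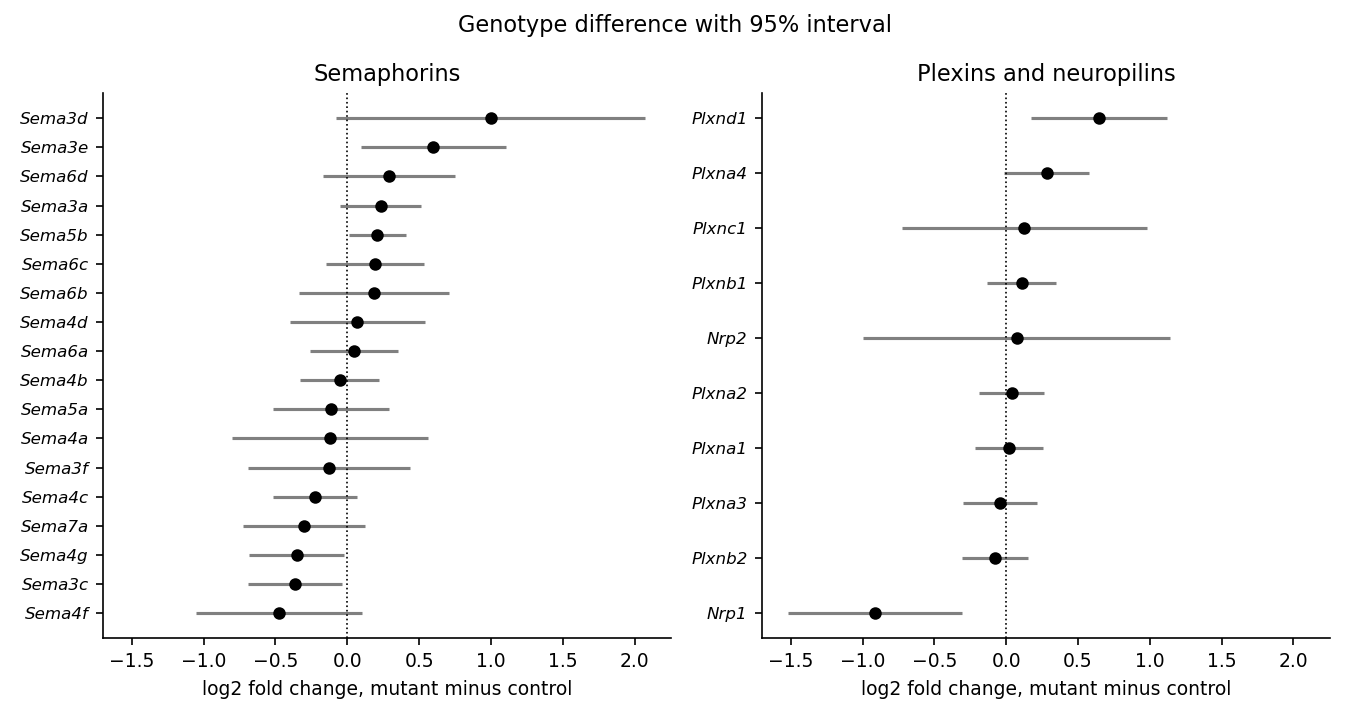
Log2 fold change of mutant minus control for the 18 tested semaphorins (left) and 10 tested plexins and neuropilins (right), with bars for the 95% interval from the model. Nrp1 lies lowest at -0.91 and Plxnd1 highest among receptors at 0.65; no value was called.

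Secreted class 3 ligands had the widest spread of genotype values, from -0.36 to 1.00 over 5 tested members. The upper end was Sema3d alone, at 3 to 27 counts per library. Without it the highest was Sema3e at 0.60, while the 2 neuropilins ran from -0.91 to 0.07. Sema3e (chr5:14025276-14256689, plus strand), the Plxnd1 ligand, was at 36.5, 31.9, 36.8, 34.7, 40.7 and 36.2 CPM in mutants 1 to 6. In controls 1 to 6 it was at 17.6, 19.1, 25.99, 8.96, 24.9 and 28.5 CPM. Every mutant lay above every control, a separation seen for 1 of the 28 members and for 1.26% of all genes in either direction. The model gave 0.60 (SE 0.239, 95% interval 0.10 to 1.10), which was not called (adjusted p = 0.430). Mutants averaged 36.1 ± 2.87 CPM and controls 20.8 ± 7.17 CPM (SD, n = 6 each).

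Sema3a, a repellent of cortical axons that acts through Nrp1 and class A plexins, was at 164, 162, 161, 219.6, 161 and 186 CPM in mutants 1 to 6. Its controls were at 109.5, 208, 194, 144, 163 and 173 CPM. The groups overlapped, the mutants lying inside a wider range of controls apart from mutant 4, and the log2 fold change of 0.23 (SE 0.133) was not called (adjusted p = 0.684). Sema3c, a ligand of neuropilins that attracts cortical axons, was at 117, 135, 84.7, 66.8, 84.8 and 67.8 CPM in mutants 1 to 6. Its controls were at 224, 114, 153, 164, 79.8 and 79.1 CPM. The 3 highest libraries were controls of litter 1, and the groups overlapped. The log2 fold change of Sema3c was -0.36 (SE 0.154, adjusted p = 0.489, not called). Sema3d, another secreted member, had the largest positive value, 1.00, but an SE of 0.512 (adjusted p = 0.613) at only 3 to 27 counts per library. Sema3f, the Nrp2 ligand, was at -0.13 (SE 0.266), with 14.99 to 35.3 CPM in mutants and 20.2 to 40.3 CPM in controls.

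The membrane-bound class 4 semaphorins, several of which bind class B plexins, were negative for 5 of 6 members, none of them called. The sign of Sema4a, Sema4b and Sema4d turned in 1 to 4 of 23 alternative fits each, while Sema4c, Sema4f and Sema4g stayed negative in all 23. Sema4g (chr19:44989101-45003397, plus strand) was at 53.2, 42.6, 46.8, 71.9, 60.8 and 59.5 CPM in mutants 1 to 6. Its controls were at 68.1, 71.4, 56.9, 81.8, 61.3 and 78.2 CPM, and the groups overlapped, with 3 mutants below the lowest control. Its log2 fold change was -0.35 (SE 0.156, 95% interval -0.68 to -0.03, adjusted p = 0.516). Sema4f had the lowest value of the class, -0.48 (SE 0.276, adjusted p = 0.690), with a median of 12.8 CPM in mutants and 22.7 CPM in controls. Sema4c was at -0.23, Sema4a at -0.12 and Sema4b at -0.05, and Sema4d, a ligand of Plxnb1, at 0.07 (SE 0.216). Sema4b was the steadiest ligand, between 40.7 and 52.1 CPM over all 12 libraries.

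Class 5 semaphorins carry thrombospondin repeats. Sema5a (chr15:32244810-32696341, plus strand) was at 329.7, 324, 304, 461, 589.6 and 489.7 CPM in mutants 1 to 6 and at 265, 247, 272, 275, 428 and 679.9 CPM in controls 1 to 6. The groups overlapped and the genotype value was -0.11 (SE 0.185, adjusted p = 0.949). Sema5b (chr16:35541145-35664732, plus strand) was at 158, 179, 244, 267, 246 and 278 CPM in mutants 1 to 6. Its controls were at 162, 163, 168, 181, 239 and 196 CPM. Here too the groups overlapped, mutants 1 and 2 lying among the lowest libraries, and the value was 0.21 (SE 0.0949, adjusted p = 0.533).

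All 4 members of membrane-bound class 6 were positive and none was called. The signs depended on the libraries used: without mutant 4, and among females alone, Sema6a and Sema6b were negative, and with neither litter nor sex in the model Sema6b and Sema6c were negative. Sema6d (chr2:124089969-124667770, plus strand), which signals through Plxna1 in several tissues, was at 669, 621, 806, 1044, 853 and 1236 CPM in mutants 1 to 6. Its controls were at 667, 863, 836, 472, 696 and 673 CPM, the mutants of litter 1 falling within the control range. Its genotype value was 0.29 (SE 0.210, adjusted p = 0.790). Sema6a, a ligand of Plxna2 and Plxna4, was at 159.5, 162, 165, 223, 169 and 151 CPM in mutants 1 to 6 and at 210.2, 142, 199, 145, 175 and 149.97 CPM in controls 1 to 6. Mutant 4 was the highest library for Sema6a and the other mutants lay within the control range, with a value of 0.05 (SE 0.144, 95% interval -0.26 to 0.35). Sema6b and Sema6c were both at 0.19, with SEs of 0.248 and 0.161. Sema7a, which is anchored to the membrane by a lipid and binds Plxnc1 and integrins, was at -0.30 (SE 0.2003, adjusted p = 0.739), from 30.9 to 47.5 CPM in mutants and from 35.0 to 69.9 CPM in controls.

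Among the receptors, Nrp1 had the largest difference of any member in size after Sema3d, and the smallest p. Nrp1 (chr8:128358604-128503363, plus strand), the co-receptor for Sema3a and for VEGF, was at 292, 420.3, 233, 232, 308 and 180.3 CPM in mutants 1 to 6. Controls 1 to 6 were at 870.2, 289.7, 495, 579, 448 and 399 CPM. All mutants but mutant 2 lay below 5 of the controls, and the groups overlapped, with mutants 1, 2 and 5 above control 2 and mutant 2 also above control 6. Mutants averaged 278 ± 83.7 CPM and controls 513 ± 199.7 CPM (SD, n = 6 each). The log2 fold change was -0.91 (SE 0.270, 95% interval -1.52 to -0.31), not called by edgeR (adjusted p = 0.295) and called by DESeq2 (adjusted p = 0.0367). Without control 1, the highest library, it was -0.67 (adjusted p = 0.595). Fitted in litter 2 alone it was -0.80. In litter 1, where no mutant is male and control 1 is the only female control, it was -1.35.

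The other neuropilin, Nrp2, binds Sema3f. It was at 150.4, 218, 182, 185, 109.6 and 129 CPM in mutants 1 to 6 and at 336, 91.1, 228, 89.99, 144 and 87.9 CPM in controls 1 to 6. The controls spanned the range of the mutants on both sides. With 0.07 (SE 0.466), its 95% interval of -0.99 to 1.14 was one of the widest of the family.

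Plxnd1 (chr6:115954811-115995005, minus strand), the Sema3e receptor, was at 92.7, 45.8, 62.0, 80.9, 61.2 and 75.3 CPM in mutants 1 to 6. Controls 1 to 6 were at 35.1, 41.7, 53.5, 27.6, 48.0 and 51.5 CPM. All mutants but mutant 2 were above every control, so the groups overlapped by that library. The means were 69.6 ± 16.7 CPM and 42.9 ± 10.1 CPM (SD, n = 6 each). The log2 fold change was 0.65 (SE 0.220, 95% interval 0.17 to 1.12, adjusted p = 0.347), not called. It was called when no filter on low counts was used (0.61, adjusted p = 0.00736). The share of all genes called in that fit is not given here, so this call has no background beside it. Plxnd1 is also a vascular gene. The endothelial markers listed beside it summed to 65.5 to 103 CPM in mutants and 69.4 to 98.3 CPM in controls, with 0 of 6 tested called, and their part in the Plxnd1 value was not tested.

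**Figure D3:**
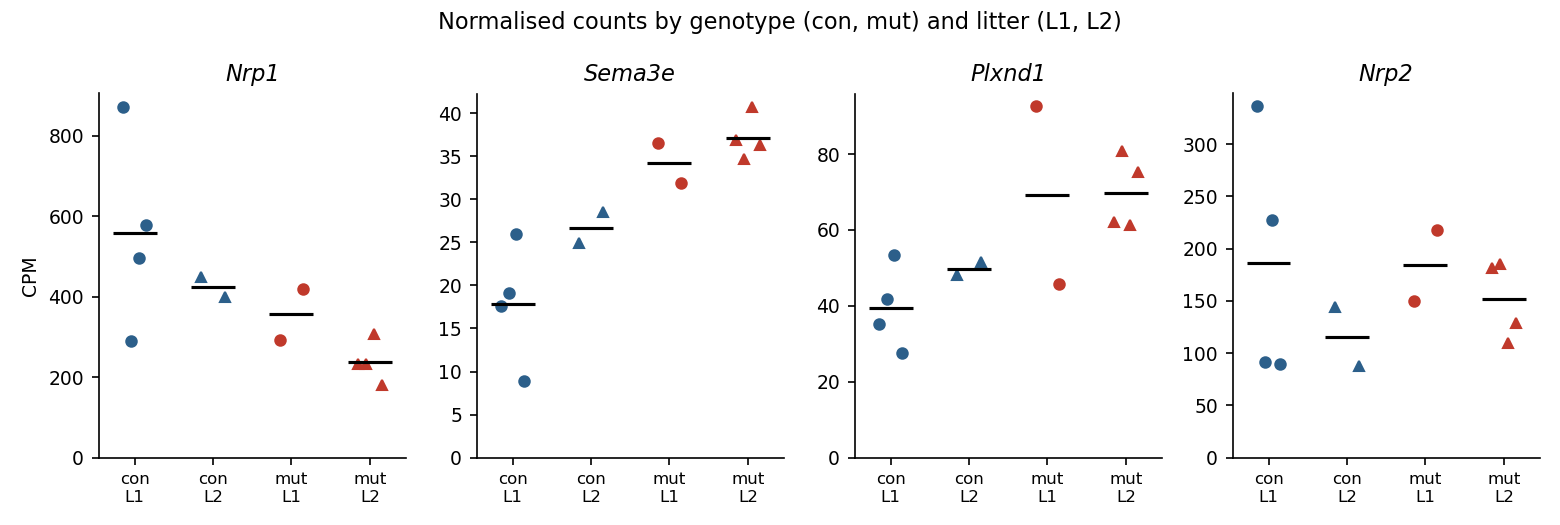
CPM of Nrp1, Sema3e, Plxnd1 and Nrp2 in each library, by genotype (con, control; mut, mutant) and litter (L1, L2); points are libraries and lines are means of 2 or 4 libraries. Nrp1 is lower and Plxnd1 and Sema3e are higher in the mutants of both litters by mean, without a call; the controls of Nrp2 span the mutants.

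The class A plexins transduce class 3 and class 6 signals, and none of the 4 was called by genotype. Plxna4 (chr6:32144268-32588192, minus strand) was at 1879, 2319, 2413, 3573, 3168 and 3182 CPM in mutants 1 to 6. Controls 1 to 6 were at 1500.1, 2023, 1547, 2244, 2491 and 2874 CPM. The 3 highest libraries were mutants of litter 2, the groups overlapped, and the value was 0.28 (SE 0.140, 95% interval -0.01 to 0.58, adjusted p = 0.592). Plxna2 (chr1:194618218-194816869, plus strand) was at 1490.5, 1452, 1391, 1719.6, 1735 and 1725 CPM in mutants 1 to 6 and at 1466, 1133, 1301, 1377, 1561 and 1705 CPM in controls 1 to 6. The groups overlapped, and its value of 0.04 (SE 0.108) came with a narrow interval, -0.19 to 0.27. Plxna1 was at 0.02 (SE 0.113) and Plxna3 at -0.04 (SE 0.122). Plxnb1 was at 135, 114, 122, 110.4, 128 and 124 CPM in mutants 1 to 6 and at 123, 131, 108, 106, 126 and 97.5 CPM in controls 1 to 6. Its libraries lay close together in both groups, and its value was 0.11 (SE 0.114). Plxnb2, a receptor for class 4 semaphorins, was at -0.08 (SE 0.108) and Plxnc1, the Sema7a receptor, at 0.13 (SE 0.377).

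Of the 40 partner genes that act with or downstream of the receptors, 36 were tested, and edgeR called 0 of them by genotype, with 3 at an unadjusted p under 0.05 (8.33% of 36, against 8.78% of all genes, no more than the background). DESeq2 and limma-voom also called 0. The values were positive for 10 and negative for 26, with a median of -0.06. The 3 smallest p-values belonged to Rac1, Cdk5r1 and Sh3bp1. Rac1, a small GTPase of the growth cone, averaged 92.5 ± 8.80 CPM over mutants and 106 ± 4.43 CPM over controls, and its log2 value was -0.26 (SE 0.0978, adjusted p = 0.372). Cdk5r1, the activator of the kinase Cdk5, was at 0.27 (SE 0.116, adjusted p = 0.491). Sh3bp1, a regulator of Rac, was at 0.43 (SE 0.202, adjusted p = 0.566).

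Between litters, 4 of the 28 members were called (14.3%), against 1.31% of all genes in either direction. They were 3 ligands and 1 receptor. Sema5a, Sema5b and Plxna4 were higher in litter 2, where 0.693% of all genes were called higher. Sema3c was lower in litter 2, where 0.618% of all genes were called lower. All libraries carry the label of a single stage, and of the 7 cortical excitatory neuron markers Tbr1 and Bcl11b were also called between litters. Their part in the members' values was not tested.

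Sema3c was lower in litter 2 by -0.90 (SE 0.135, 95% interval -1.18 to -0.61, adjusted p = 0.00406). Its libraries, given above, did not overlap: litter 1 ran from 114 to 224 CPM and litter 2 from 66.8 to 84.8 CPM. In controls the mean was 163 ± 45.5 CPM in litter 1 (SD, n = 4) and 79.5 ± 0.5003 in litter 2 (n = 2), and in mutants 126 ± 12.8 (n = 2) and 76.0 ± 10.1 (n = 4). The order was the same in both genotypes. The call was kept in all 12 fits that left out 1 library.

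Sema5b was higher in litter 2 by 0.48 (SE 0.0827, 95% interval 0.31 to 0.66, adjusted p = 0.00735). The litters did not overlap, at 158 to 181 CPM in litter 1 and 196 to 278 CPM in litter 2. In controls it was 168 ± 8.86 CPM in litter 1 and 218 ± 30.0 in litter 2, and in mutants 168 ± 14.7 and 259 ± 16.5. The call was kept in 11 of 12 fits without a library, and lost without control 5 (adjusted p = 0.0517).

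Plxna4 was higher in litter 2 by 0.56 (SE 0.124, 95% interval 0.30 to 0.82, adjusted p = 0.0309). Every library of litter 2 was above every library of litter 1, the nearest being mutant 3 at 2413 CPM and mutant 2 at 2319 CPM. Together with Sema3c and Sema5b this made 3 of 28 members without overlap between litters, against 1.66% of all genes. Its call was less steady, kept in 4 of 12 fits without a library (those without mutant 2, mutant 3, control 2 or control 4) and lost in the other 8. Sema5a was higher in litter 2 by 0.78 (SE 0.166, adjusted p = 0.0443). In controls it was 265 ± 12.5 CPM in litter 1 and 554 ± 178 in litter 2, and in mutants 327 ± 4.38 and 461 ± 118. The litters overlapped through mutant 3, at 304 CPM, and the call was kept in 1 of 12 fits, the one without mutant 3. Among the partners, 1 of 36 was called between litters (2.78%, against 1.31% of all genes in either direction). Rnd2, a GTPase of migrating neurons, was higher in litter 2 by 0.69 (adjusted p = 0.0123). Without the 2 shallowest libraries (mutants 1 and 4) 1 member was called between litters, Sema3c (adjusted p = 0.0221), as it was among females alone (adjusted p = 0.0436). Among controls alone the 1 called member was Sema5a (adjusted p = 0.0406, with Sema3c at 0.0521), and among mutants alone 0 were called. The shares of all genes called in these subset fits are not given here, so these counts cannot be set against a background.

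**Figure D4:**
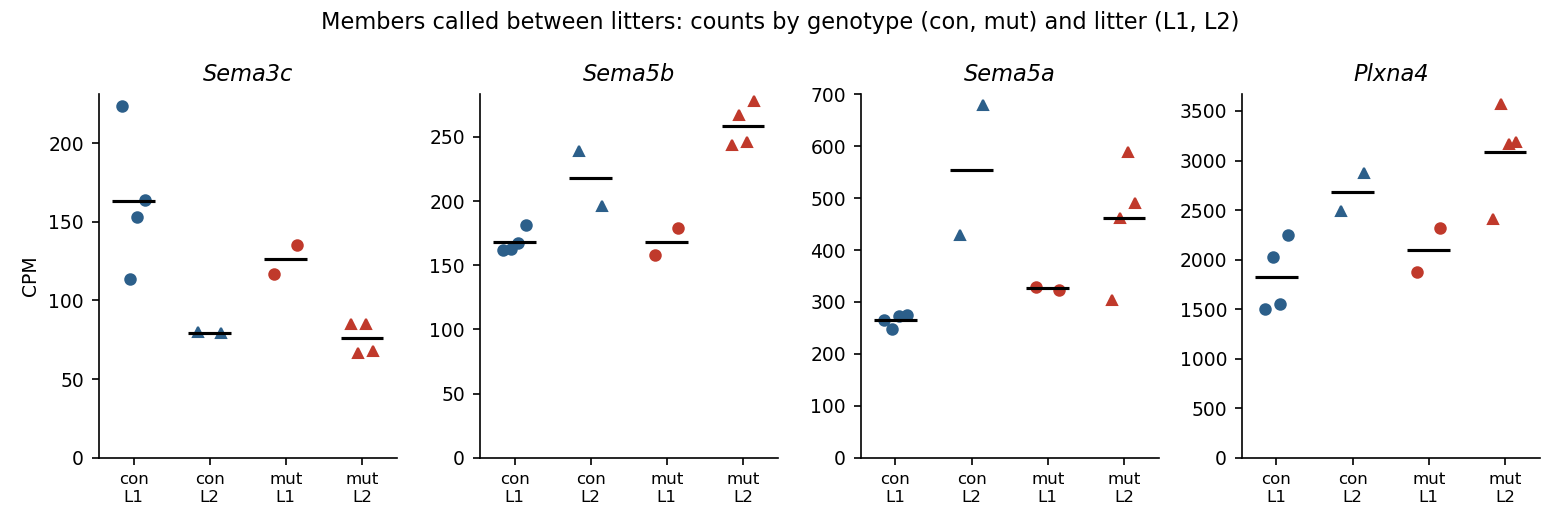
CPM of the 4 members called between litters, in each library by genotype (con, control; mut, mutant) and litter (L1, L2); points are libraries and lines are means of 2 or 4 libraries. Sema3c is lower and the other 3 genes are higher by mean in litter 2 within each genotype; for Sema5a 1 mutant of litter 2 lies below the mutants of litter 1.

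Dissected cortices can carry neighbouring striatal tissue, so a score was computed per library from 5 tested striatal markers of 12 listed (Ebf1, Rarb, Foxp2, Six3 and Drd2), as the mean of their standardised log2 CPM. Those markers were positive by genotype for 5 of 5 without a call, and the listed markers summed to 516 to 1813 CPM in mutants and 391.6 to 1941 CPM in controls. Each of the 5 had equal weight, though Six3 and Drd2 had only 129 and 218 counts over all libraries. Rarb and Six3 were at 0 CPM in mutant 4. In control 1 Rarb was at 1.25 CPM but Foxp2 still at 329 CPM. How far the score measures striatal tissue alone was not tested. The score had been planned as a further term beside genotype, and its own coefficient was tested only after the data had been seen. That coefficient called 1 of 28 members, against 1.07% of all genes. The 1 member was Nrp1, at -0.35 on the log2 scale per unit of score (SE 0.0644, adjusted p = 0.0106). Control 1, with the lowest score of -1.47, had the highest Nrp1 level, and control 2, with the highest score of 1.42, the lowest Nrp1 level of the controls. The mutants did not follow the score so closely. Mutant 4, with their lowest score of -1.16, was at 232 CPM, below mutant 1 at 292 CPM with a score of 0.99. Mutant 6, with their highest score of 1.06, had their lowest level, 180.3 CPM. The score's call of Nrp1 was lost without control 2 (-0.26, adjusted p = 0.185). Sema4d came next, at -0.27 per unit (adjusted p = 0.0533, not called).

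With the score in the model the genotype value of Nrp1 was -0.74, and it was called (adjusted p = 0.0220), 1 of 28 members where 0.553% of all genes were called. limma-voom with the same terms gave -0.73 (adjusted p = 0.0306). Leaving out 1 library at a time kept that call in 7 of 12 fits, and without mutant 4 the value was -0.52 (adjusted p = 0.489). The calls lost were those without mutant 1, 2, 3 or 4 or control 1. Interneuron markers were positive by genotype for 9 of 9 without a call (349 to 825 CPM summed in mutants, 267 to 756 CPM in controls). The score's own coefficient called 6 of the 9, against 1.07% of all genes. The part of these markers in the Nrp1 value was not tested. For Plxnd1 and Sema3e the score's coefficient was 0.19 and 0.21 per unit, not called (adjusted p = 0.518 and 0.550). With the score in the model their genotype values were 0.56 and 0.50, also not called (adjusted p = 0.361 and 0.531). The part of striatal tissue in those values was not tested.

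**Figure D5:**
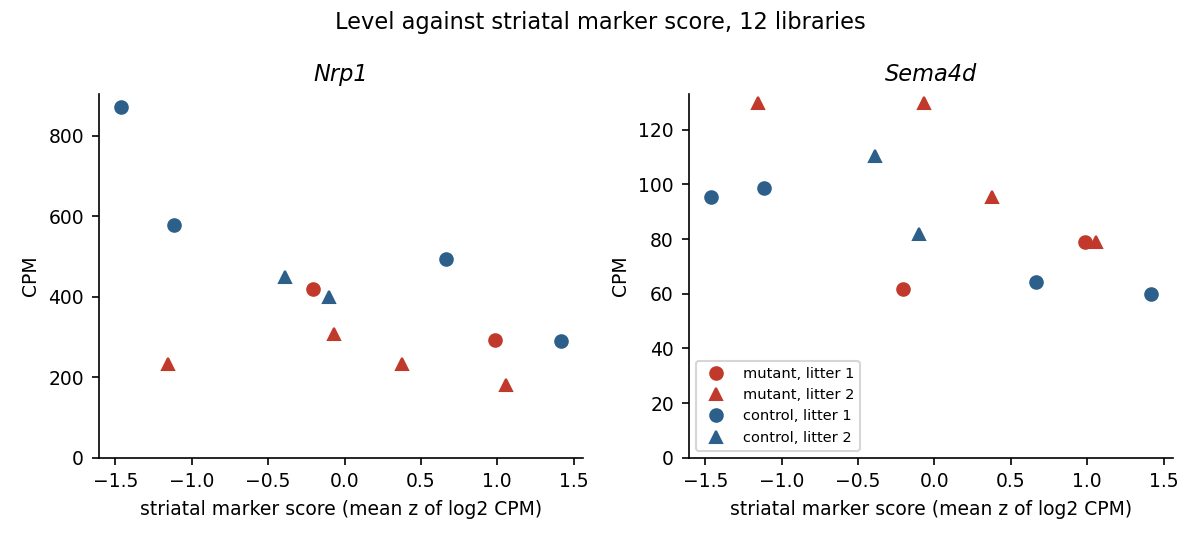
CPM of Nrp1 (left) and Sema4d (right) in the 12 libraries against the striatal marker score, the mean of standardised log2 CPM of 5 markers; colours mark genotype and shapes mark litter. Nrp1 runs from 870.2 CPM in the control with the lowest score to 289.7 CPM in the control with the highest. In the mutants it is at 232 CPM at the lowest score and 180.3 CPM at the highest, with 420.3 CPM in mutant 2 between them.

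Sex gave no called member: edgeR called 0 of 28, against 0.00937% of all genes, and 2 members had an unadjusted p under 0.05 (7.14% of 28, against 6.95% of all genes, a share near the background). These were Sema3a, higher in males by 0.36 (SE 0.129, adjusted p = 0.687), and Sema3c, lower by -0.32 (SE 0.146, adjusted p = 0.712). DESeq2 and limma-voom also called 0. The interaction of litter and genotype, which asks whether the genotype difference changed between litters, was called for 0 of 28 members and 0% of all genes in edgeR, the only tool run for it. At an unadjusted p under 0.05 there was 1 member, Sema6b at 1.12 (unadjusted p = 0.0144, adjusted p = 0.574), against 7.27% of all genes. For Nrp1 the interaction was -0.05 (SE 0.531) and for Sema3c 0.48 (SE 0.249, adjusted p = 0.731). The litter 1 side of this test holds 2 mutants, both female, and 4 controls, of which 1 is female. A single sex term was shared by both litters.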

How the data were processed

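Total RNA of cortex was made into 12 libraries by ClickSeq (randomly primed cDNA is stopped by azido-nucleotides, and click chemistry adds the adaptor). Per the labels' protocols ribosomal RNA was depleted. The deposited files hold raw counts per Ensembl gene, with no normalization by the authors. The submitters' processing notes name STAR 2.5.2a, HTSeq 0.6.1p1, UMI-tools 0.5.3, edgeR 3.20.9, bcl2fastq 2.17 and cutadapt 1.13, and the build mm10. The sources used here do not give the step order, annotation release, counting mode, feature type or strand setting. Without strand, a gene and an overlapping antisense gene cannot be told apart: 3 antisense genes overlap Plxna4 and 1 each overlaps Sema3e, Sema5a and Sema5b, none of them protein-coding, and none overlaps Sema3c, Nrp1 or Plxnd1. On the same strand 2 genes overlap Sema3e and 1 overlaps Nrp1, also not protein-coding. Further same-strand overlaps, none protein-coding, were 4 for Plxna2, 3 for Sema3a, 2 for Plxnc1 and 1 each for Nrp2, Sema3d, Sema4a, Sema4b and Plxnb2. Further antisense overlaps, also not protein-coding, were 2 each for Sema6d and Plxna1 and 1 each for Sema3a, Sema3d, Sema4c, Sema4d, Plxnb1 and Nrp2.

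Entries naming no gene (20.69 to 31.63% of a file) were left out. Symbols and coordinates came from GENCODE M21 (GRCm38): 47648 identifiers matched with version, 3985 without, and 279 had no match. Counts were filtered by filterByExpr by genotype (minimum count 10), TMM-scaled. The model was edgeR's (4.0.16, R 4.3.3), fitted with glmQLFit (robust) and glmQLFTest, terms litter, sex and genotype, 8 residual degrees of freedom, and Benjamini-Hochberg adjustment over all genes tested. The SE is the fold change divided by the square root of F. The script was tested on simulated counts. DESeq2 1.42.0, limma-voom (limma 3.58.1), other scaling, filters, terms and subsets were alternatives, and tables used Python 3.11.15 with pandas 2.3.3 and plots matplotlib 3.10.9. Within-litter values were fitted in that litter with a sex term. Members, lists and tests were chosen with earlier results of these data known. Values in all libraries are given for called members, the 4 ligands and 4 receptors with the smallest genotype p, the 3 highest of each per exon kb, and Sema3a, Sema3c, Sema3e, Nrp1, Nrp2, Plxna4 and Plxnd1; partners are named where called, or else the 3 with the smallest p. Library numbers follow accession order. Nothing states that libraries came from separate embryos, so p-values measure the spread between these samples, which may be technical in part.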

Additional observations from a re-analysis of the deposited data

Results flagged for a closer look

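Over 58 checks of 1 tested member or the striatal score in 1 genotype group, 2 libraries stood apart from the other 5 of their group, where chance alone flags about 1 in 20. Sema6a was at 223.46 CPM in mutant 4, with the nearest other mutant at 168.7 CPM. Sema7a was at 30.8611 CPM in mutant 2, with the nearest other mutant at 43.2 CPM. Both libraries have low depth, 794716 and 924066 counts on genes.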

How the results depend on the processing

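By genotype, 1 member was called instead of 0 with DESeq2 (Nrp1), 1 without a filter on low counts (Plxnd1) and 1 with the striatal score as a term (Nrp1), and 0 under the other alternatives run. Over those alternatives 15 members kept the sign of the genotype value and 13 changed it in at least 1. Nrp1 ran from -1.11 to -0.67, with adjusted p from 0.0220 upwards. By litter, 4 members were called, and 5 without the filter and 5 with the striatal score as a term. There was 1 among females alone, 1 without the 2 shallowest libraries, 1 among controls alone and 0 among mutants alone. Leaving out 1 library gave 1 to 4, the lowest without control 5. The score called 1 member, and 0 to 4 when 1 library was left out, 0 being without control 2. The cause of these changes was not tested, but each subset has fewer libraries. The shares of all genes called without the filter and in the subsets are not given here. No partner was called by genotype under any alternative run. No paired analysis was possible because the labels give no replicate numbers that match libraries across genotypes; litter stands in the model instead. Depth limits Sema3d (3 to 27 counts per library) most among the tested members.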
